A study of Mus musculus with 3 samples.

Results

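Setd1a CUT & RUN peaks that sat just downstream of protein-coding transcription start sites (TSSs) were examined in cultured quiescent adult neural stem cells (NSCs). A peak was a member when it overlapped no TSS of an annotated protein-coding transcript, its nearer edge lay 1 to 1000 bp from the nearest such TSS, and the whole interval was downstream of that TSS in the direction of transcription. Of the 6969 peaks in the deposited list, 6911 lay on chromosomes 1 to 19, and 571 of these met the rule, which was 8.26% of them. The other peaks on these chromosomes comprised 3032 over a coding TSS, 541 just upstream by the mirrored rule, and 2767 farther than 1000 bp from any coding TSS. The 571 peaks were assigned to 562 genes, and 9 genes had 2 of them.

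The list was made from 2 Setd1a libraries, and the series also holds 1 IgG control library. The libraries came from NSCs of the dentate gyrus of mice aged 7 to 8 weeks, and the labels name the cells neural progenitor cells of WT genotype and the mouse line Hopx-CreERT2::Setd1afl/fl::H2B-GFP, which has a loxP-flanked Setd1a allele, a tamoxifen-inducible Cre under Hopx and a nuclear GFP reporter. Cells were grown with 20 ng/ml each of FGF2 and EGF, switched after 16 h to medium without EGF and with 20 ng/ml each of BMP4 and FGF2, and collected at day 5. All of them were WT and quiescent, so no treated or mutant group was compared. The list gives the chromosome and both ends of each peak found in both replicates and no height or score, so the depth of the libraries and the spread between replicates are unknown, and every interval below covers counting error over peaks or genes only. Peaks are regions of 1 list and not replicates. As a check of the cell type, a peak lay over or within 1000 bp of a coding TSS for 20.6% of all protein-coding genes, 4 of 8 NSC marker genes (Id4, Nes, Sox2 and Vim), 0 of 6 neuronal markers, 1 of 5 oligodendrocyte lineage markers (Pdgfra) and 0 of 5 microglial markers. The other NSC markers, Sox9, Hopx, Fabp7 and Slc1a3, had none in the list, and a peak says nothing of the level of a transcript. With so few markers, and peaks at 20.6% of all genes, the 0 of 6, 1 of 5 and 0 of 5 do not separate these lists from other genes. The 4 of 8 was not tested against other genes, and on so few genes it does not establish the cell type.

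Setd1a is the catalytic subunit of a COMPASS-type complex that methylates histone H3 at lysine 4 near promoters. Its complex contains Cxxc1, a protein that binds unmethylated CpG dinucleotides, and Wdr82, which contacts the form of RNA polymerase II found early in transcription. The stretch after a TSS holds exon 1, the first 5′ splice site and the start of intron 1, and in many mammalian genes it is also where a CpG island continues into the gene and where RNA polymerase II pauses before elongation.

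The sequences below cover the midpoint and 100 bp on each side of it for 9 downstream peaks, read from the GRCm38 (mm10) reference 5′ to 3′ on the strand of the gene, with CpG dinucleotides in capitals. They are shown because CpG content differed widely among these regions. The first 7 come from the widest named peaks that were free of annotated UTR sequence and lay in intron 1 or coding sequence, with the repeat-rich Gm21738 left out. The last 2 were added after their values were seen, as examples of high and low CpG content.
Sin3a: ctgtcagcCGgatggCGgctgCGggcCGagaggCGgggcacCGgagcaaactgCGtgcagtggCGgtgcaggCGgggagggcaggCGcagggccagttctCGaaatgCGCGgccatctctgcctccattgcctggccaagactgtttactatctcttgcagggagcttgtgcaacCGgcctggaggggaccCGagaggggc
Mafg: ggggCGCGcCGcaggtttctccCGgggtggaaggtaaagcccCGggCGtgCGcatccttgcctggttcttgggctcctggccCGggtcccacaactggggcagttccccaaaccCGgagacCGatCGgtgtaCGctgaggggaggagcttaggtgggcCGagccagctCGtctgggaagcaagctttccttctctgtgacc
Fosb: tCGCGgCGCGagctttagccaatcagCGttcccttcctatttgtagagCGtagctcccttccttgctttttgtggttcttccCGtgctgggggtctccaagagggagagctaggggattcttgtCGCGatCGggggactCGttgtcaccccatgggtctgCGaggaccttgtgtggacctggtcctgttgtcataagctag
Eef2k: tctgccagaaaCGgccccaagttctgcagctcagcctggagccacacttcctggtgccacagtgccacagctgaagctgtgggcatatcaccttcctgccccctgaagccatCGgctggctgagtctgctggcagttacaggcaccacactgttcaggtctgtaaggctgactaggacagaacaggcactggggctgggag
Gse1: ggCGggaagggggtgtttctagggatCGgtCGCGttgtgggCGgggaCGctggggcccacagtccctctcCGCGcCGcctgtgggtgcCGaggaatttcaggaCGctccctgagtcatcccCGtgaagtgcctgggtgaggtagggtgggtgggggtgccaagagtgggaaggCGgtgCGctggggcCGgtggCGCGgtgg
Trp53: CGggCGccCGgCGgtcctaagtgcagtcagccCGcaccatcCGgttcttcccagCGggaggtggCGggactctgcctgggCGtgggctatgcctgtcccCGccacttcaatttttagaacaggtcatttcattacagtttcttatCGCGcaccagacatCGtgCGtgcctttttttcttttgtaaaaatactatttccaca
Sox2: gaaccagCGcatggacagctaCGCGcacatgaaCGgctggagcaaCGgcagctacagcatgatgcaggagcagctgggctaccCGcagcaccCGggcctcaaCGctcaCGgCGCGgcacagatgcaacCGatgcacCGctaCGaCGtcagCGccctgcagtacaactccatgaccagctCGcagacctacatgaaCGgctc
Setd2: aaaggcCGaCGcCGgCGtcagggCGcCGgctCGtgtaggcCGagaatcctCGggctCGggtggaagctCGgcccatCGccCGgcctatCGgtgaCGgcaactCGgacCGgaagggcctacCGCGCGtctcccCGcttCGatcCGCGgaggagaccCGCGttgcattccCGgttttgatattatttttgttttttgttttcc
Dglucy: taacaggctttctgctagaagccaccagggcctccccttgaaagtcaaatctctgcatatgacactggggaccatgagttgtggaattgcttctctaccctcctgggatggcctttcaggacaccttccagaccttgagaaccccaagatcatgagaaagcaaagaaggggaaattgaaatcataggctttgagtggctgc

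These windows held from 0 to 27 CpG dinucleotides. The Sox2 window lies in coding sequence of its only exon, and the other 8 lie in intron 1. The Sin3a window spans chr9:57073234-57073434 on the plus strand, the Mafg window chr11:120632584-120632784 on the minus strand, and the Fosb window chr7:19308430-19308630 on the minus strand. The Eef2k window spans chr7:120851928-120852128 on the plus strand, the Gse1 window chr8:120536507-120536707 on the plus strand, the Trp53 window chr11:69581531-69581731 on the plus strand, and the Sox2 window chr3:34650880-34651080 on the plus strand. The Setd2 window spans chr9:110533140-110533340 on the plus strand and the Dglucy window chr12:100779440-100779640 on the plus strand. Sin3a, a scaffold of a histone deacetylase complex, had 15 CpG dinucleotides in its window, and Mafg, a small Maf transcription factor, had 14. Sox2, a transcription factor of neural stem cells, had 18, and Setd2, a histone H3 lysine 36 methyltransferase, had 27. Eef2k, the kinase of translation elongation factor eEF2, had 2, and Dglucy, a mitochondrial D-glutamate cyclase, had none.

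The distance of the nearer edge, which the rule itself used, is given as a description, and its median follows the window chosen, at 80 bp with a window of 500 bp and 145 bp with 2000 bp. With the window of 1000 bp, the nearer edge was a median of 108 bp from the TSS (95% interval 92 to 133 bp, n = 571), with quartiles of 40 and 331.5 bp. It lay within 50 bp for 169 peaks (29.6%), within 100 bp for 278 (48.7%), within 250 bp for 395 (69.2%) and within 500 bp for 482 (84.4%). The upstream peaks had a median of 135 bp (121 to 151 bp, n = 541), with quartiles of 58 and 275 bp. In the first 50 bp there were 169 downstream and 114 upstream peaks, and between 501 and 1000 bp there were 89 and 64. Among all peaks flanking a TSS on either side, 51.3% were downstream (571 of 1112, Wilson 95% interval 48.4% to 54.3%), an interval that includes equal numbers on both sides. The share depended on the set of TSSs. With the TSSs of all annotated transcripts it was 48.7% (45.8% to 51.6%), an interval that also includes equal numbers on both sides. The share was 53.7% (50.9% to 56.6%) with GENCODE basic transcripts and 55.6% (52.8% to 58.3%) with curated RefSeq mRNAs, a set chosen after seeing the data. The intervals for GENCODE basic transcripts and RefSeq mRNAs both lie above equal numbers. With only 1 TSS per gene, at the 5′ end of the gene record, 871 peaks met the rule and 65.7% of the flanking peaks were downstream (63.1% to 68.2%). Peaks that lie over a later TSS of a gene become downstream peaks under that setting.

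**Figure D1:**
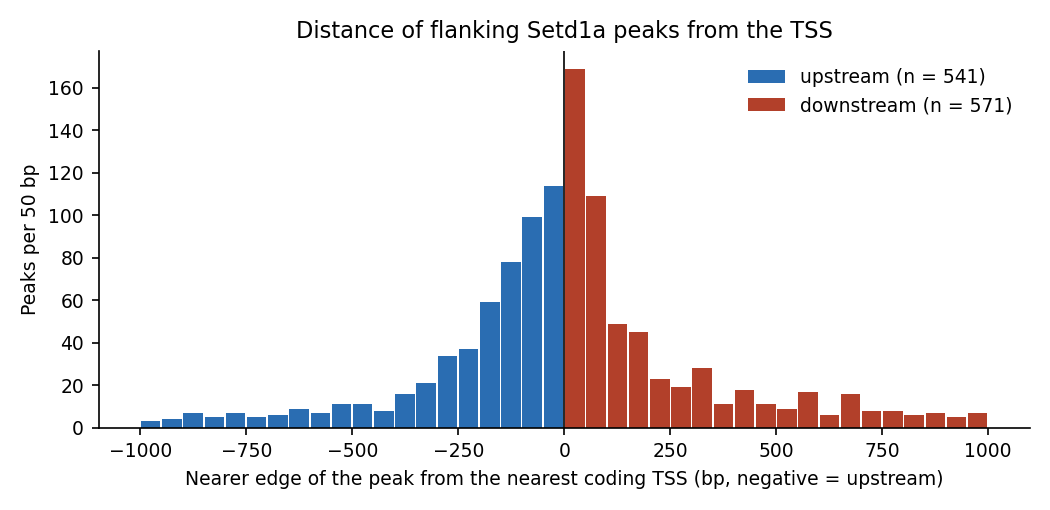
Number of Setd1a peaks in 50 bp bins of the distance between the nearer edge of the peak and the nearest coding TSS, for 541 upstream peaks (blue, negative distances) and 571 downstream peaks (red). The bin next to the TSS is the highest on each side, with 169 downstream and 114 upstream peaks.

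At the inner limit of the rule, peaks whose nearer edge was 1 bp after the TSS included those at Hnrnpa3, Ndufb4, Ppp4r3b, Rabac1 and Secisbp2. Just outside it, the edges of the peaks at Appbp2, Hmgxb4 and Hsdl1 fell on the TSS itself, so these counted as peaks over a TSS. At the outer limit, the nearer edges were 967 bp at Smarca5, 982 bp at Plekhg1, 996 bp at Sbno2 and Ttyh3, and 1000 bp at the more distant Inpp5k peak. The first peaks left out lay at 1002 bp (Anp32a), 1005 bp (Mxi1) and 1007 bp (Ube2ql1).

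Downstream peaks were narrow compared with peaks over a TSS. Their median width was 377 bp (360 to 392 bp), with quartiles of 288 and 499.5 bp and a range of 233 to 2530 bp. Upstream peaks had a median width of 391 bp (373 to 417 bp) and peaks over a coding TSS one of 603 bp (590 to 616 bp). Width is tied to the classes, since a wider interval beside a TSS is more likely to reach it, and it was not tested. Within the downstream peaks the median width varied little with distance, from 384 bp in the first 50 bp to 370 bp between 501 and 1000 bp. The midpoint lay a median of 336 bp after the TSS and the far edge a median of 556 bp after it. The 8 widest peaks belonged to Gm21738 (2530 bp), Clec11a (1390 bp), Sin3a (1193 bp), Mafg (1150 bp), Fosb (1105 bp), Eef2k (1099 bp), Coro1c (1097 bp) and Mpped2 (1088 bp). The Gm21738 interval stood apart from the others, since 84.9% of its bases were soft-masked repeats and its GC content was 34.2%. In all, 8 downstream peaks were more than 50% repeat sequence, at the predicted genes Gm21738, Gm10715, Gm10717, Gm10719 and Gm10800 and at Lin28a.

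Most downstream peaks lay around the end of the first exon or in the first intron. The rule itself has each peak begin within 1000 bp after a TSS. No background share was computed for the positions below, so they describe the peaks and show no preference. In the transcript chosen for each TSS, 283 peaks (49.6%, 45.5% to 53.7%) lay across the end of exon 1, where the first 5′ splice site is. Another 181 (31.7%) lay wholly beyond exon 1, 80 (14.0%) lay within it, and 27 (4.73%) belonged to transcripts with a single exon. Exon 1 had a median length of 220.5 bp over the 544 spliced cases. The peaks within exon 1 belonged to long first exons, with a median of 686.5 bp, against 224 bp for peaks across the exon 1 end and 130 bp for peaks beyond it. The grouping sets this order in large part, since only a long exon 1 can hold a whole peak. The peaks beyond exon 1 began a median of 218 bp after its end. The midpoint was in intron 1 for 331 peaks (58.0%), in the 5′ untranslated region for 110 (19.3%) and in coding sequence for 106 (18.6%). Of all bases under downstream peaks, 54.7% were first intron, 22.0% were 5′ untranslated region and 17.9% were coding sequence. The start codon lay under 180 peaks (31.5%). The peaks were divided between the strands, with 275 (48.2%) at genes of the plus strand.

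**Figure D2:**
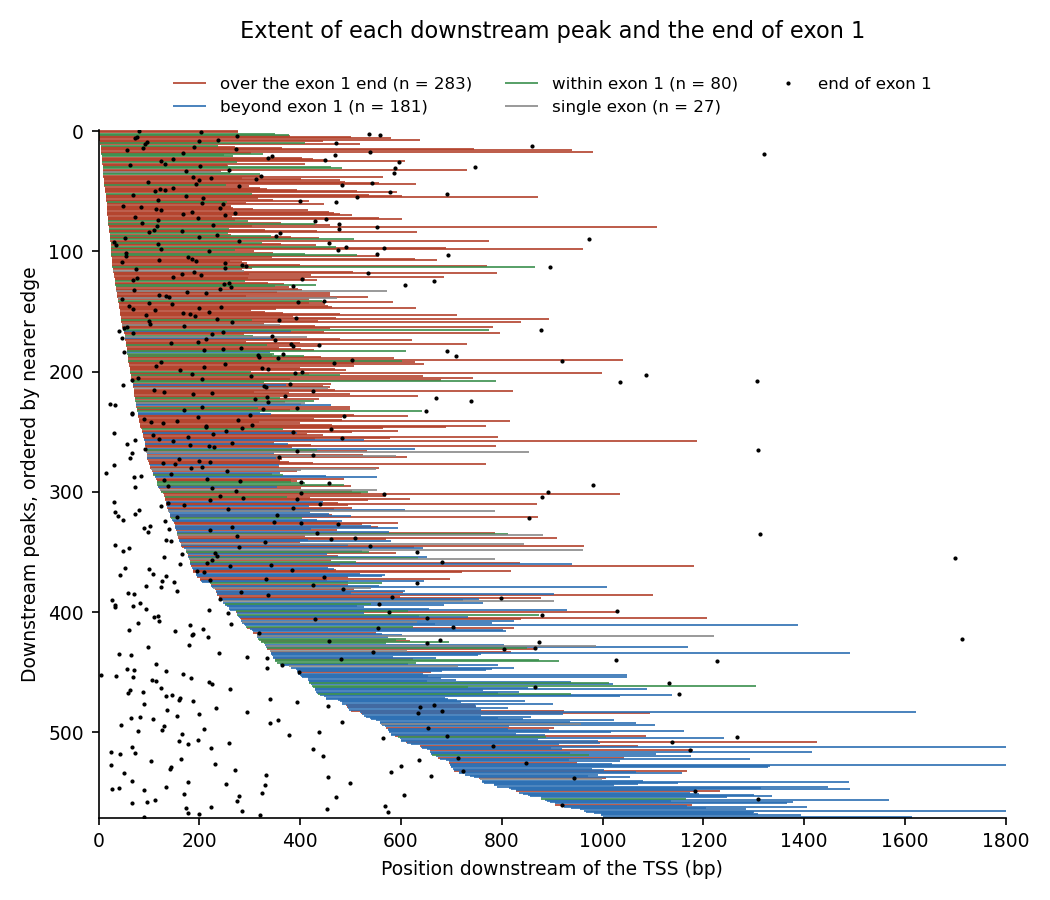
Extent of each of the 571 downstream peaks (one line each, ordered by the nearer edge from top to bottom) against the distance downstream of the TSS in bp, coloured by the place of the peak relative to exon 1, with a black dot at the end of exon 1 for spliced transcripts. Peaks that begin near the TSS mostly cross the end of exon 1, and peaks that begin farther out mostly lie beyond it. The axis ends at 1800 bp, past which 3 peaks and 5 exon 1 ends lie.

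The crossing of the exon 1 end depended on where the peak began. In the first 50 bp, 130 of 169 peaks (76.9%) crossed the first 5′ splice site of a transcript of their TSS, and between 251 and 500 bp 12 of 87 (13.8%) did. The first introns entered in this way began with GT at 280 of 283 sites. They began with GTGAGT, a 5′ splice site form with G at the third base, at 50 sites (17.7%, 13.7% to 22.5%). Of the first introns at all 49550 spliced coding TSS positions, 17.4% did. The crossed introns began with GTAAGT, the form with A at the third base, at 12 sites (4.24%, 2.44% to 7.26%), against 10.8% of all. The junctions below are the last 20 exon bases in lower case and the first 20 intron bases in capitals, on the strand of the gene, for 4 genes whose exon 1 end was crossed and free of annotated UTR. They show the GT of the intron inside the peak.
Notch2 junction: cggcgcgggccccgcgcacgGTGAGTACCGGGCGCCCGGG
Hey1 junction: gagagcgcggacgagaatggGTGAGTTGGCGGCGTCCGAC
Ndufb4 junction: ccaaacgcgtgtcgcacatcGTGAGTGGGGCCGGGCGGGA
Eif3e junction: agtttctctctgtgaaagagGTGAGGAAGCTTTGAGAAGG

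The Notch2 junction is at chr3:98013752-98013791 on the plus strand and the Hey1 junction at chr3:8666762-8666801 on the minus strand. The Ndufb4 junction is at chr16:37654160-37654199 and the Eif3e junction at chr15:43282583-43282622, both on the minus strand. Notch2, a Notch receptor, Hey1, a bHLH-Orange repressor downstream of Notch, and Ndufb4, a subunit of respiratory complex I, have GTGAGT at the intron start, and Eif3e, a subunit of translation initiation factor eIF3, has GTGAGG.

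CpG content was high in downstream peaks and higher than in upstream peaks. The median GC content was 65.8% (64.7% to 66.4%) downstream, 58.3% (57.3% to 59.5%) upstream and 64.2% over a coding TSS. The observed over expected CpG ratio, which compares the CpG count with the one given by the C and G content, had a median of 0.80 (0.78 to 0.82) downstream, 0.69 (0.67 to 0.72) upstream and 0.84 over a TSS. CpG island composition, here a GC content of at least 50% with a ratio of at least 0.6, was met by 411 of 571 downstream peaks (72.0%, 68.2% to 75.5%) and by 332 of 541 upstream peaks (61.4%, 57.2% to 65.4%). The difference of 10.6 percentage points (5.07 to 16.1) passed the two-sided Fisher's exact test with an adjusted p of 0.001, adjusted over the family of 14 features compared between the 2 classes, of which 4 passed. It did not pass when the TSSs of all annotated transcripts were used, with a difference of 7.52 points and an adjusted p of 0.0943. Peaks over a coding TSS met the criterion in 90.5% of cases. At all 20807 protein-coding gene records of these chromosomes, 48.0% of the windows from 100 to 300 bp after the gene start and 26.5% of the windows from 300 to 100 bp before it met it. Windows on the 2 sides of the start thus differed in composition at all genes too, and the part of this in the difference between the peaks was not tested.

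CpG content fell with distance from the TSS. CpG island composition was met by 87.0% of the 169 peaks that began 1 to 50 bp after the TSS, 86.2% of the 109 at 51 to 100 bp, 74.4% of the 117 at 101 to 250 bp, 55.2% of the 87 at 251 to 500 bp and 39.3% of the 89 at 501 to 1000 bp. Upstream the shares were 74.6%, 75.8%, 57.5%, 46.7% and 46.9% in the same bins. The downstream share was the higher one in the first 4 bins and the lower one in the last. By place, the criterion was met by 71 of 80 peaks within exon 1 (88.8%), 239 of 283 across its end (84.5%), 22 of 27 at single-exon transcripts (81.5%) and 79 of 181 beyond exon 1 (43.6%). At the extremes, the ratio was 1.34 in the narrower Gm21738 peak, whose GC content of 35.5% kept it outside the criterion, 1.28 at Setd2, 1.25 at Ppp1r37, 1.24 at Sec63 and 1.21 at Ptma. It was 0 at Dglucy, 0.035 at Arhgef19, 0.061 in the outer Tppp3 peak, 0.064 at Nutf2 and 0.069 at Gzmm. Of these 5 CpG-poor peaks, all lay beyond exon 1.

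**Figure D3:**
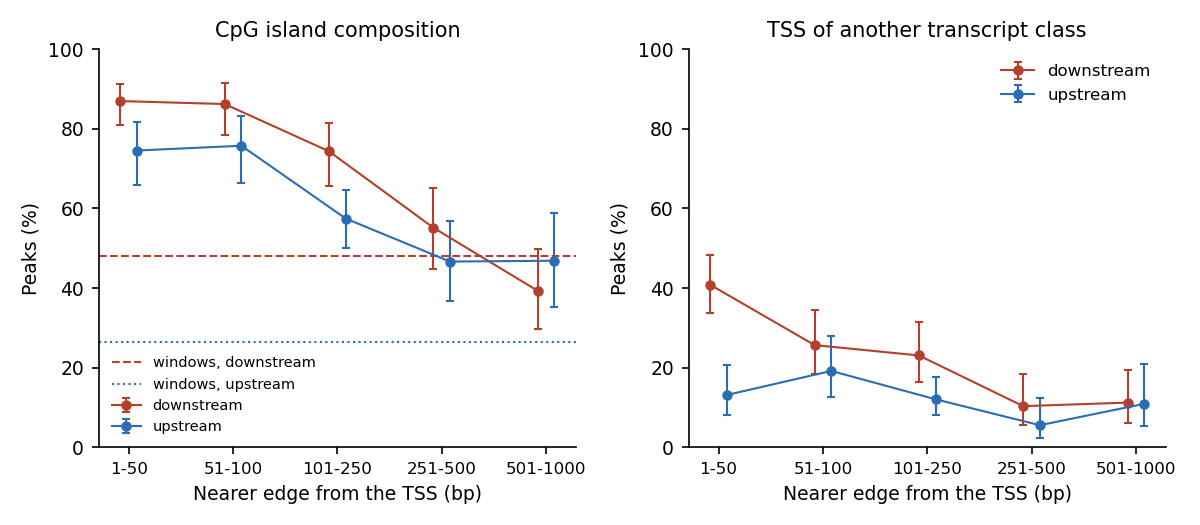
Percent of peaks with CpG island composition (left) and percent over a TSS of a transcript annotated with a class other than protein-coding (right), by distance of the nearer edge from the coding TSS, for downstream (red) and upstream (blue) peaks. Error bars are Wilson 95% intervals over peaks. Horizontal lines are the shares in windows at all protein-coding genes, 48.0% downstream and 26.5% upstream, and these windows were narrower than the peaks. The downstream CpG share falls from 87.0% in the nearest bin to 39.3% in the farthest.

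Starts of other kinds of transcripts were compared between the classes as well. Transcripts annotated with a class other than protein-coding began under 143 downstream peaks (25%, 21.7% to 28.8%) and under 67 upstream peaks (12.4%, 9.87% to 15.4%). The difference of 12.7 percentage points (8.11 to 17.1) passed the Fisher's exact test with an adjusted p of 9.22e-07, and it kept its direction and passed under each alternative that could be run. Peaks over a coding TSS held such a start in 1920 of 3032 cases (63.3%, 61.6% to 65.0%). Of the windows at all gene records, which were narrower than the peaks, 13% held one downstream and 5.98% upstream. The 2 sides thus differed at all genes too, and the part of this in the difference between the peaks was not tested. The contrast can be set in part by where the annotation places such starts, under every alternative, and no conclusion is drawn from it. Downstream, 114 peaks held such a start of their own gene, 28 one of another gene on the opposite strand and 10 one of another gene on the same strand. Upstream the numbers were 22, 46 and 2. Starts of the same gene were thus more frequent downstream (20.0% against 4.07%). Starts of another gene on the opposite strand were more frequent upstream (8.50% against 4.90%). The annotated classes under downstream peaks were processed transcripts (65 peaks), retained-intron transcripts (60), transcripts subject to nonsense-mediated decay (24), antisense transcripts (14) and miRNA precursors (6). The share was 40.8% for downstream peaks that began in the first 50 bp and 11.2% for those that began 501 to 1000 bp away. The remaining 428 peaks (75%) lay over no TSS of any class in the GENCODE annotation. Some of them lay over the start of a curated RefSeq mRNA, those at Ppp4r3b and Mpped2 among them.

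The coding TSS itself was often 1 of several. The TSS was the first coding TSS of the gene for 304 peaks (53.2%) and a later one for 267 (46.8%), and 212 peaks belonged to genes with a single coding TSS. CpG island composition was met by 76.0% of the former and 67.4% of the latter. Against the starts of curated RefSeq mRNAs, 454 of the 571 peaks (79.5%) were again downstream within 1000 bp, 66 (11.6%) lay over a start, 10 lay upstream and 41 were farther away. Among the genes named here, the peaks at Hey1, Id3, Ndufb4, Ppp4r3b, Mpped2, Ppp1r37, Arl2 and Puf60 lay over a RefSeq start. Those farther than 1000 bp from one included the peaks at Mnt, Mycl, Clec11a, Sbno2, Ttyh3 and Nutf2 and both Tppp3 peaks. Only 8 peaks (1.40%) were assigned to a TSS whose transcripts all have a 5′ end that GENCODE marks as not found, against 8.47% of all coding TSS positions.

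For most downstream peaks, the same gene had no peak over a coding TSS and none just upstream of one. Peaks farther than 1000 bp from any coding TSS were not counted by gene. The same gene also had a peak over a coding TSS for 66 peaks (11.6%) and an upstream peak for 44 (7.71%). Another peak of the list lay within 1000 bp of 103 downstream peaks (18%, 15.1% to 21.4%), of 97 upstream peaks (17.9%, 14.9% to 21.4%) and of 162 peaks over a TSS (5.34%, 4.6% to 6.20%). The 9 genes with 2 downstream peaks included Actb, Gm10717, Gm21738, Gse1, Inpp5k, Tppp3, Tsc22d1 and Zfp638. In Gm21738 both peaks shared a TSS, with 296 bp between them, and in the other 7 genes named each peak had its own. Of the genes in the hand-made lists below, Sox2, Pik3r1 and Smad6 also had an upstream peak, and Fosb, Mnt and Srf also had a peak over a coding TSS. In Actb, which encodes cytoplasmic beta-actin, the peaks were 1153 bp apart, and their GC contents were 66.1% and 48.0%.

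Searches for short motifs in the central window of each peak (the midpoint and 100 bp on each side) separated the classes for few of them. The motifs were searched on both strands except the 5′ splice site letters, which were read on the strand of the gene, and hits of different motifs that overlapped were counted separately. CCAAT, the letters bound by NF-Y, was present in 72 downstream peaks (12.6%, 10.1% to 15.6%) and 130 upstream peaks (24.0%, 20.6% to 27.8%). This difference of -11.4 percentage points (-15.9 to -6.90) passed with an adjusted p of 5.83e-06. The all-gene windows of the same length held CCAAT in 16.9% of cases downstream and 25.6% upstream. The 2 sides thus differed at all genes too, and the part of this in the difference between the peaks was not tested. GTGAGT was present in 38 downstream peaks (6.65%, 4.89% to 9.0%) and 17 upstream peaks (3.14%, 1.97% to 4.97%), a difference of 3.51 points (0.97 to 6.14) with an adjusted p of 0.0285. The windows held it in 12.4% and 4.66%, so the downstream share was lower in peaks than in windows at all genes, whose distances from the TSS differ from those of the peaks. By the rule, upstream peaks cannot cross the first 5′ splice site of their TSS, and downstream peaks can. The GTGAGT contrast between the classes can thus be set in part by the rule, and no conclusion is drawn from it.

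The other motifs did not pass. The GC box GGGCGG, bound by SP and KLF factors, was the most frequent, in 232 downstream peaks (40.6%) and 206 upstream peaks (38.1%), a difference of 2.55 points (-3.19 to 8.26). In the windows its shares were 29.7% downstream and 21.3% upstream. The E-box CACGTG, the letters read by MYC, USF and BHLHE40 factors, was in 29 downstream peaks (5.08%) and 30 upstream peaks (5.55%), a difference of -0.47 points (-3.19 to 2.21), with 2.94% and 3.82% in the windows. The ETS letters CCGGAAG were in 25 and 29 peaks, with 4.18% and 3.33% in the windows. The YY1 letters AAGATGGC were in 13 and 9 peaks, with 1.45% and 1.22% in the windows. The AP-1 letters TGACTCA were in 8 and 11 peaks, with 1.83% and 2.89% in the windows. GTAAGT was in 7 and 9 peaks, with 6.92% and 2.27% in the windows. The CRE letters TGACGTCA were in 6 and 5 peaks, with 0.298% and 0.543% in the windows. The NRF1 letters GCGCATGCG were in 2 and 9 peaks (adjusted p of 0.0934 by the Fisher's exact test), with 0.293% and 0.606% in the windows, and the RFX letters GTTGCCATG were in 1 and 3, with 0.207% and 0.202%. The palindromic NFI letters, TTGGC and GCCAA with 5 bases between them, were in none of either class, which allows a share of up to 0.668% downstream by the Wilson interval. In the windows they occurred in 0.0048% and 0.014%. The most motifs were found at Puf60, with 4, and at Afg3l2, Arl2, Eif3e and Rps13, with 3 each.

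**Figure D4:**
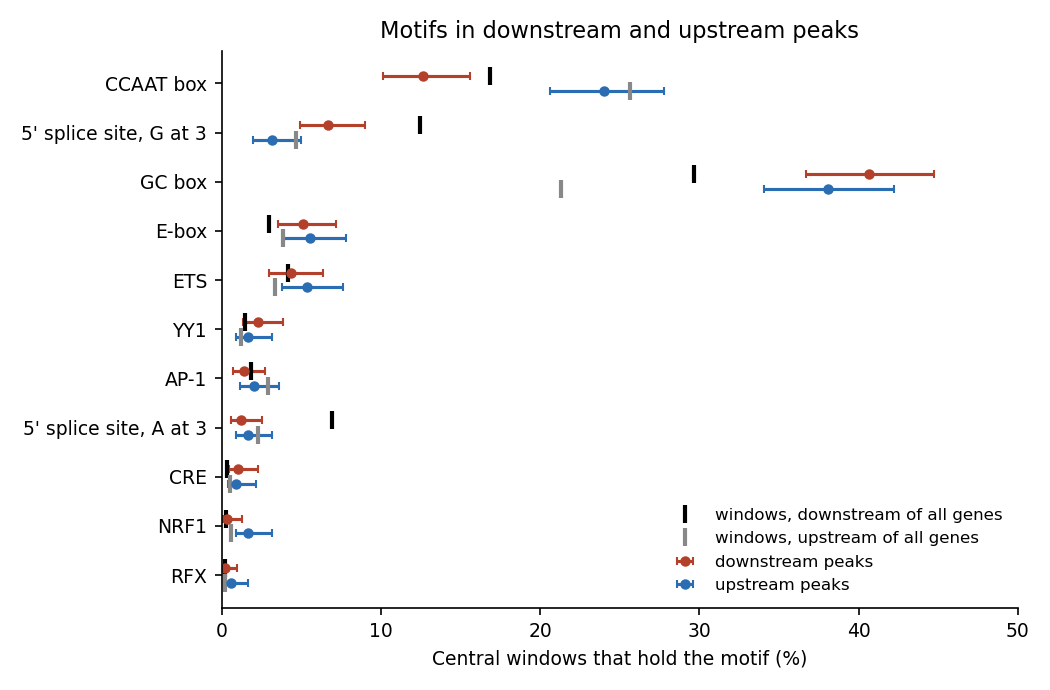
Percent of downstream (red, n = 571) and upstream (blue, n = 541) peaks whose central window, 100 bp on each side of the midpoint, holds each motif, with Wilson 95% intervals, and the shares in equally long windows 100 to 300 bp downstream (black ticks) and upstream (grey ticks) of 20807 protein-coding gene starts. The CCAAT box is the motif with the widest gap between the classes, at 12.6% and 24.0%, and the NFI letters, found in no peak, are not drawn.

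By gene, 562 of 20780 protein-coding gene symbols on these chromosomes (2.7%) had a downstream peak, and 4279 (20.6%) had a peak over or within 1000 bp of a coding TSS. These 2 shares are the background for the gene lists below, which were not tested. Each list gives the genes with a downstream peak of those annotated on chromosomes 1 to 19, and the genes with any peak over or within 1000 bp of a coding TSS.

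Transcription factors of neural stem cells had 5 of 46 genes with a downstream peak (10.9%, 4.73% to 23.0%) and 16 (34.8%) with any peak near a TSS. The peak at Sox2 spanned 246 to 904 bp after the TSS of this single-exon gene, was 659 bp wide and had a GC content of 65.7%. Hey1 had a peak from 151 to 523 bp that crossed the end of its exon 1 of 475 bp. Pax6, a paired-box factor of forebrain progenitors, had one from 58 to 407 bp after a later coding TSS, within an exon 1 of 710 bp. Klf9, a Krüppel-like factor, had one from 67 to 329 bp, within an exon 1 of 1034 bp. The downstream peaks of these 4 genes lay in or across exon 1 or in a single exon, and all 4 had CpG island composition.

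Of the Notch pathway, 2 of 35 genes (5.71%) had a downstream peak, Hey1 and Notch2, and 15 (42.9%) had any peak. The Notch2 peak was 850 bp wide and ran from 44 bp to 893 bp after the TSS, across the end of its exon 1 of 234 bp and into intron 1. In the BMP and TGF-beta pathway, the route of the BMP4 in the quiescence medium, 2 of 38 genes (5.26%) had a downstream peak and 15 (39.5%) any peak. The downstream peaks were at Id3, a BMP target that inhibits bHLH factors, from 182 to 510 bp, and at Smad6, an inhibitory Smad, from 560 to 957 bp after the TSS of a single-exon transcript. The Smad6 peak was centred past the annotated end of that short transcript, and its TSS was not the first coding TSS of the gene.

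Growth factor and MAP kinase signalling had 4 of 45 genes (8.89%) with a downstream peak and 17 (37.8%) with any. Etv5, an ETS factor downstream of FGF signalling, had a peak from 25 to 557 bp. The insulin receptor gene Insr had one from 8 to 482 bp, within an exon 1 of 589 bp. Pik3r1, the regulatory subunit of PI3-kinase, had one from 242 to 754 bp that began 2 bp after the last base of its exon 1 of 241 bp. In these 3, the GC content was between 68.9% and 70.2%.

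Cell cycle and quiescence genes had 4 of 46 (8.70%) with a downstream peak and 16 (34.8%) with any. Foxo1, a forkhead factor restrained by PI3-kinase signalling, had a peak from 64 to 479 bp, with a GC content of 74.5%. Mnt, a repressor that pairs with Max, had one from 400 to 1049 bp after a later TSS with an annotated exon 1 of 5 bp. Mycl, a Myc family member, had one from 906 to 1177 bp after a later TSS, with a CpG ratio of 0.31, and its central window held CACGTG. Trp53, the gene of the tumour suppressor p53, had one from 885 to 1568 bp, in intron 1 of a later TSS, with a GC content of 49.3%, just under the criterion. The Mycl and Trp53 peaks were the only 2 in the 8 hand-made lists, over all their downstream peaks, that did not have CpG island composition.

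Immediate early genes had 4 of 38 (10.5%) with a downstream peak and 19 with any. Fosb, a partner of Jun in AP-1, had the 1105 bp peak from 518 to 1622 bp, in intron 1 of a later TSS, and a peak over a coding TSS of the same gene lay 957 bp from it. Fosl1, another Fos family member, had a peak from 29 to 284 bp whose centre held TGACTCA. Srf, the factor that binds serum response elements, had one from 696 to 950 bp, across the end of its exon 1 of 848 bp, and Ier5l had one from 122 to 552 bp in its single exon. Of genes for pausing and elongation of RNA polymerase II, 1 of 40 (2.50%) had a downstream peak, Hexim1, the inhibitor of P-TEFb, from 95 to 590 bp in its single exon, while 22 had any peak. None of 26 genes of the H3K4 methylation machinery had one (0%, up to 12.9%), while 12 (46.2%) had any peak.

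**Figure D5:**
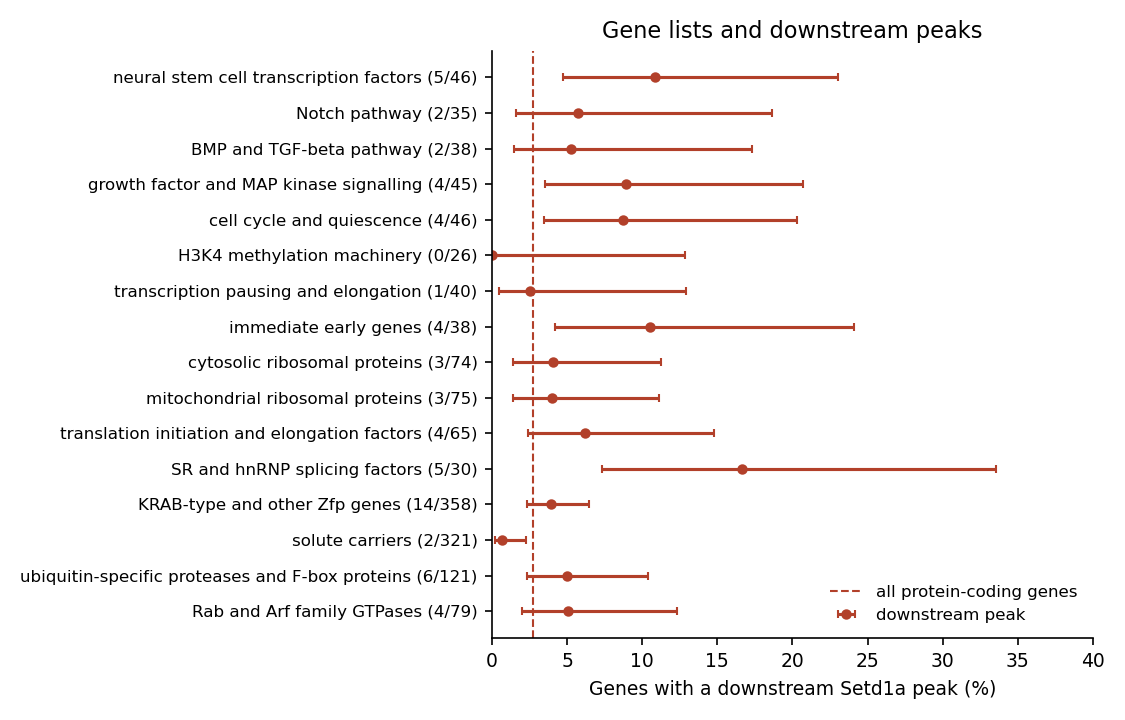
Percent of genes in each of 16 gene lists with a downstream Setd1a peak (points) with Wilson 95% intervals over genes, and the share of all protein-coding genes (dashed line, 2.7%). Numbers in parentheses are genes with a downstream peak of those annotated on chromosomes 1 to 19. The splicing factor list has the highest share, 5 of 30, and the H3K4 methylation list has none of 26.

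Gene families recognised by their symbols ranged from 0.623% to 16.7%. SR and hnRNP splicing factors had 5 of 30 with a downstream peak (16.7%, 7.34% to 33.6%), namely Hnrnpa3, Hnrnpk, Srsf10, Srsf5 and Srsf7, and 25 of 30 (83.3%) with any peak near a TSS. The Hnrnpa3 peak ran from 1 to 581 bp, across the end of a 72 bp exon 1, with a GC content of 75.7%. Cytosolic ribosomal protein genes had 3 of 74 (4.05%), Rps13, Rps21 and Rps6, with any peak at 36 (48.6%). Mitochondrial ribosomal protein genes had 3 of 75 (4.0%), with any peak at 24 (32.0%). Genes whose symbols begin like those of translation factors had 4 of 65 (6.15%), of which Eif3e and Eif3j1 encode initiation factor subunits and Eef2k and Eif2ak1 encode kinases of translation factors, with any peak at 32 (49.2%). Zfp genes had 14 of 358 (3.91%) and any peak at 99 (27.7%), ubiquitin-specific proteases and F-box proteins 6 of 121 (4.96%) and 41 (33.9%), and Rab and Arf family GTPases 4 of 79 (5.06%) and 30 (38.0%). Solute carriers had 2 of 321 (0.623%, 0.171% to 2.24%), Slc25a45 and Slc39a10, and any peak at 46 (14.3%). Where the share with a downstream peak was above the 2.7% of all genes, the share with any peak near a TSS was above its background of 20.6% as well.

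Replication-dependent histone genes and other genes without introns supplied part of the 27 single-exon cases, among them Hist1h2ai, Hist1h2bg, Hist1h3f, Hist1h4c, H1fx, Cebpd, Irf2bp1 and Irf2bpl, which were named after their values were seen. On the sex chromosomes, which the rule left out, 1 of 39 peaks met it otherwise, a 294 bp peak 164 bp after a TSS of Rpl36a.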

How the data were processed

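Adult NSCs of the dentate gyrus were profiled with Setd1a CUT & RUN (2 libraries, 1 group) and IgG (1 library). The assay tethers a nuclease to antibody-bound chromatin, and fragments cut loose around the protein are sequenced. Per the labels and the methods, the authors converted the reads with bcl2fastq 2.17.1.14, trimmed them with Trimmomatic 0.32, aligned them to mm10 with Bowtie2 2.1.0, filtered with SAMtools 0.1.18 and called peaks with MACS2 2.2.8 for each replicate. The deposited list holds, in bp, the start and end of the peaks found in both replicates, with no score, signal or depth, and has no IgG values. Per the methods, the listed peaks are the intersection of the peak calls of both replicates. Whether an edge in the list is that of the overlap or of 1 replicate's peak, and whether IgG was the control of the peak calling, are not given in the sources used here. A stricter or deeper peak calling would move edges, and a peak whose edge moves by a few bp can enter or leave the group.

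Positions were taken as 1-based and placed on GENCODE M21 (56327 protein-coding transcripts, 52101 TSS positions) with Python 3.11.15, pandas 2.3.3, numpy 2.4.6 and pysam 0.24.0, and samtools 1.23.1 indexed GRCm38. All 6911 intervals lay inside the chromosomes of the reference. Distances ran from the nearer edge. Where several transcripts shared a TSS, 1 was chosen for the exon description. CpG island composition was read over the whole peak, motifs in its central window, 100 bp on each side of the midpoint. Shares carry Wilson 95% intervals, medians order-statistic intervals and differences Newcombe intervals. Downstream and upstream peaks were compared by 14 two-sided Fisher's exact tests (scipy 1.17.1) with Benjamini-Hochberg adjustment at 0.05. The p-values cover counting over the peaks of 1 combined list, not variation between cultures. In simulated data, 900 of 900 intervals were placed in their true class, and motifs planted in random sequence of A and T only were all found. Simulated flanking intervals with another coding TSS as near were left out, so placement among several close TSSs was not checked. Figures were drawn with matplotlib 3.10.9.

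The genes named are the 8 widest peaks, the 5 nearest to and the 5 farthest from the TSS with 3 just outside, the genes with more than 1 peak, the hand-list genes with a peak, the 5 highest and the 5 lowest CpG ratios and the 5 with the most motifs. The rule, the members, the lists and the motifs were chosen with earlier results of these data known. Alternatives changed the set of TSSs, the window, the distance measure, the minimum width, the merging of close peaks and the CpG criteria. RefSeq TSSs and the removal of repeat-rich peaks were added after seeing the data. Some genes that the rule names are not reported here.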

Additional observations from a re-analysis of the deposited data

How the results depend on the processing

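No paired analysis was possible because the deposited table combines both replicates in 1 set of intervals, and for the same reason no replicate could be left out. Depth is unknown, so a gene without a downstream peak is only absent from this list. The cause of each change below was not tested. With the TSSs of all annotated transcripts, the median distance was 138 bp, 37.5% of peaks crossed the first 5′ splice site, 58.2% had CpG island composition, and the downstream minus upstream difference of that share, 7.52 points, no longer passed. The share over other transcript classes is 0 by construction there and was not computed. With GENCODE basic transcripts 54.1% crossed the splice site. With 1 TSS per gene there were 871 downstream peaks, which were 65.7% of flanking peaks, with a median distance of 134 bp, a median width of 403 bp, 36.5% over another transcript class and 80.6% with CpG island composition. With a window of 500 bp the median distance was 80 bp, 56.0% crossed the splice site and 78.0% had CpG island composition, and with 2000 bp the values were 145 bp, 43.7% and 66.9%. Distances taken from the midpoint had a median of 324.5 bp, and peaks of at least 300 bp had a median width of 432 bp. With peaks within 1000 bp merged, the median distance was 91 bp and 54.3% crossed the splice site. With criteria of 55% and 0.65, 66.7% had CpG island composition. Chosen after seeing the data, RefSeq TSSs gave a downstream share of 55.6%, 31.9% over another transcript class and 78.8% with CpG island composition, and first 5′ splice sites were not read for them. Leaving out repeat-rich peaks, also chosen then, moved no value beyond its interval. The difference in other transcript classes, from which no conclusion is drawn, passed in 9 of 9 alternatives, at 10.8 to 24.8 points. The difference in CpG island composition passed in 11 of 12.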
